A study of Mus musculus with 4 samples.

Results

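Hematopoietic progenitors of tumor-free mice were compared between 2 organs by single-cell RNA-sequencing. In this droplet method a barcode names the droplet a transcript came from, and a second random tag (UMI) lets each captured transcript be counted once. The libraries were control spleen (CS) and control bone marrow (CBM), 1 of each. They came from C57BL/6J mice aged 8 to 16 weeks labelled as controls, and no tumor was present on either side. Control animals of the study's tumor experiments were injected with PBS, which its single-cell methods do not state for these mice. Barcodes with at least 1000 genes and at most 10% mitochondrial UMIs were kept, which gave 3236 in CS and 3497 in CBM, 6733 of 16261 over the 4 libraries of the study. Lineage-depleted live cells of each organ were sorted as CD45+ c-Kit+ Sca-1+, CD45+ c-Kit+ Sca-1- and several CD45- gates and pooled in equal parts, so a share below is a share of that pool and not of the organ. Neither the labels nor the methods say how many mice made up a library. With 1 library per organ no test was possible, the intervals given cover counting error only, and no difference below has a replicate check. Organ and handling cannot be told apart, since spleens were minced before digestion whereas marrow was spun out of the bones.

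Hematopoietic stem and progenitor cells (HSPCs) reside mainly in BM, where they pass through lineage-restricted stages such as the granulocyte-monocyte progenitor (GMP). A small number is found in the spleen of healthy mice, and under stress the organ hosts extramedullary hematopoiesis, in mice with a large erythroid part. Immediate-early genes such as Jun, Fosb and Egr1 encode transcription factors that are transcribed within minutes of a signal, without new protein synthesis, and they also respond to the isolation of cells from tissue.

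The kept barcodes held 104314280 UMIs in CS, 71.8% of the library, and 59122731 in CBM, 58.1%. CS barcodes were deeper, with a median of 26322.5 UMIs and 5036.5 genes against 13738 UMIs and 3746 genes. The median mitochondrial share was 3.08% and 3.12%. Only 2 barcodes occurred in both libraries. Levels are UMIs of a gene per 1000000 UMIs of the barcodes summed (CPM), and differences are log2 of CS CPM over CBM CPM. A gene was compared where it averaged at least 20 CPM over CS and CBM with at least 50 UMIs in both together, and was counted as higher or lower in CS from a 2-fold difference on. A gene under 20 CPM in 1 library can pass only through the other, so counts and medians over measured list members are descriptions that carry no weight of their own. Barcodes with at most 100 UMIs, which hold RNA set free from broken cells, gave the free RNA level of each library.

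Classes of cells differed first in how many barcodes they held. Clustering of both libraries together gave 29 clusters, of which 23 were named from marker genes. HSPC-like barcodes made up 5.69% of CS (95% interval 4.91 to 6.54) and 23.7% of CBM (22.3 to 25.2). GMP-like barcodes made up 2.13% and 15.1%, monocyte-like barcodes 1.33% and 11.8%, and neutrophil precursor-like barcodes 2.10% and 5.49%. B lineage-like barcodes were 3 of 3236 in CS and 247 of 3497 in CBM. These 5 classes were smaller in CS with the clusters used, whereas marker scores of single barcodes moved the log2 share of the HSPC-like class from -2.06 to -0.95 and that of neutrophil precursors from -1.39 to 0.11, the latter on 3 barcodes in each library. In the other direction, early erythroid-like barcodes held 16.7% of CS and 0.543% of CBM, dendritic cell-like barcodes 9.30% and 0.172%, and T, NK or innate lymphoid-like barcodes 3.80% and 0.0858%. The log2 ratio of the last share was 5.47, or 0.78 with classes from marker scores of single barcodes, and that of the dendritic share 5.76, or 1.65 at a cluster resolution of 0.6. A further 33.3% of CS and 1.72% of CBM lay in 3 clusters that the naming rule left unnamed. They had Scin, an actin-severing protein, among their 10 leading genes, were joined after the data were seen and are called Scin-led below. The size of the contrast depends on this grouping. At a cluster resolution of 0.6, unnamed clusters with Scin among their leading genes held 385 and 427 CS and 23 and 305 CBM barcodes. Another, with Slc45a3 and Hes1 among its leading genes, held 503 and 19. Unnamed cluster 22, with 62 CS and 256 CBM barcodes, was not joined. Scin stood there at 264 and 114 CPM, beside 193 and 68.4 in the 3 clusters. Clusters 1 and 3 had fewer than 3 raised markers of any class. In cluster 4 the HSPC markers Meis1, Mycn and Sox4 were raised, but the mean over the HSPC list was not. Early erythroid markers summed to 3064 CPM in CS and 2779 in CBM in the 3 clusters, beside 3739 and 801 over whole libraries. The shares of megakaryocyte-like barcodes, 5.56% and 6.52%, and of endothelial-like barcodes, 0.340% and 0.372%, had overlapping intervals. Although CD45- gates were sorted, the 9 stromal markers summed to 7.70 CPM over the CS library and 12.2 over CBM, with 3 and 4 of them at 0. Lineage depletion and the c-Kit gate bear on all of these shares, and their part in the differences was not tested.

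**Figure D1:**
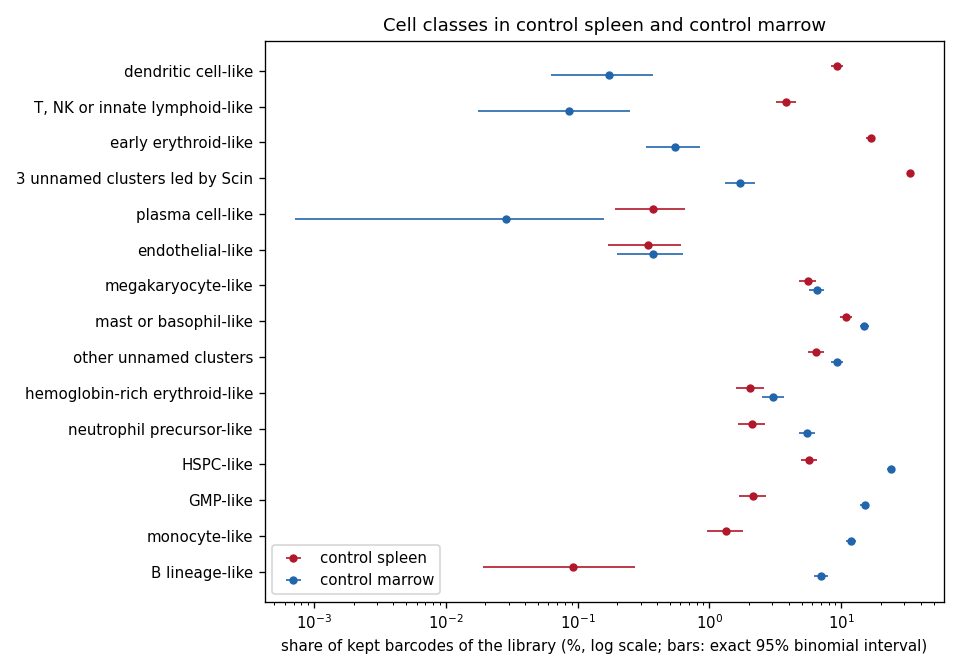
Share of kept barcodes (%, log scale) in each class for CS (red) and CBM (blue), with exact 95% binomial intervals as bars. HSPC-like barcodes sit at 5.69% in CS and 23.7% in CBM, and early erythroid-like barcodes at 16.7% and 0.543%.

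Summed over whole libraries, CS was higher in 151 of 6078 genes (2.48%) and lower in 309 (5.08%), around a median log2 ratio of 0.03. In such sums more cells of a type and more RNA per cell cannot be told apart. The MHC class II genes H2-Eb1 and H2-Aa, which present peptides on antigen-presenting cells, were at 467 and 555 CPM in CS and at 7.41 and 17.2 CPM in CBM, log2 ratios of 5.98 and 5.02. Metallothioneins, which bind zinc and copper, were also higher in CS, with Mt2 at 244 against 9.76 CPM and Mt1 at 522 against 127 CPM. Lyz2, the lysozyme of myeloid cells, was at 57.5 CPM in CS and 856 in CBM, and the protease inhibitor Slpi at 13.7 and 190. Of 12 measured lineage transcription factors 3 were higher and 5 lower, 3 having passed the minimum only through CBM, and over the list of 14 CS had the higher CPM for 5 and the lower for 9. Klf1 and Gata1 of erythroid cells and their cofactor Zfpm1 were higher in CS (log2 2.08, 1.45 and 1.08) and Cebpa, Cebpb, Cebpd and Spi1 of myeloid cells and Ebf1 of B cells were lower (-1.95, -1.80, -2.17, -1.28 and -6.86). Of 15 measured homing and adhesion genes 0 were higher and 6 lower in CS, 1 of the 15 having passed only through CBM, among them the chemokine receptors Ccr2 (19.8 against 116 CPM) and Cxcr4 (30.2 against 91.8 CPM). Over the list of 20, CS had the higher CPM for 5 and the lower for 15. Free RNA was split alike, with Lyz2 at 90.8 CPM in CS and 703 in CBM and H2-Eb1 at 518 and 15.5.

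Fewer genes were past 2-fold within classes than over whole libraries. Barcodes of both libraries were grouped by alike expression, so this is in part built in. Immediate-early genes, Jun, Egr1 and Fosb below among them, were left out of that grouping, so barcodes were not matched on them. The 6 classes with at least 50 barcodes on each side were compared gene by gene. Jun, a subunit of the AP-1 transcription factor, was the 1 gene of 3203 measured in every class that was higher in CS in all 6 (0.0312%), and 0 genes (0%) were lower in all 6. Egr1, a zinc finger transcription factor, was higher in 5 classes. Fosb, another AP-1 subunit, the phosphatase gene Dusp2 and the carbonic anhydrase gene Car1 were higher in 4. Egr1 in GMP-like and neutrophil precursor-like barcodes, at 7.65 and 6.50 CPM in CBM, and Car1 in HSPC-like and neutrophil precursor-like ones, at 6.68 and 1.27 CPM, passed the minimum only through CS. The same level need not be reached for this, since Jun stood at 731 CPM in HSPC-like CS barcodes and at 70.8 CPM in hemoglobin-rich erythroid-like ones. Car1 differs from the others in its free RNA, 1940 CPM in CS against 89.8 in CBM, whereas free Jun was at 224 and 121 CPM and free Egr1 at 170 and 103. With free RNA subtracted as 10% of the UMIs, the log2 ratio of Jun was 2.18 in HSPC-like, 1.501 in GMP-like, 3.70 in neutrophil precursor-like and 1.52 in megakaryocyte-like barcodes, and the median of the measured immediate-early genes lay between 0.49 and 2.46 over the 6 classes.

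Jun lies at chr4:95049034-95052222 on the minus strand (mm10) and overlaps the antisense gene Junos, and Junb overlaps Prdx2, so reads of these pairs could be mixed if counting ignored strand. The 250 bases before the RefSeq start (GRCm38.p6) are shown for Jun and Btg2, which carry the letters TGANNTCA, a form of the site bound by AP-1 and by related CREB/ATF factors, and for Fosb, which does not carry them. All 3 lie on the minus strand and are given 5′ to 3′ in the sense of the gene, at chr4:95052223-95052472, chr1:134079156-134079405 and chr7:19310046-19310295. Capitals mark the matches.
Jun: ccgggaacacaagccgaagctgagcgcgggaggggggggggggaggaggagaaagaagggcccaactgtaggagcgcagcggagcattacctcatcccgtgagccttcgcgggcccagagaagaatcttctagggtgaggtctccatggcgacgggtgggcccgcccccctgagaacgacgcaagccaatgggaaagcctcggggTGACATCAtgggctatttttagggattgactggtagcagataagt
Btg2: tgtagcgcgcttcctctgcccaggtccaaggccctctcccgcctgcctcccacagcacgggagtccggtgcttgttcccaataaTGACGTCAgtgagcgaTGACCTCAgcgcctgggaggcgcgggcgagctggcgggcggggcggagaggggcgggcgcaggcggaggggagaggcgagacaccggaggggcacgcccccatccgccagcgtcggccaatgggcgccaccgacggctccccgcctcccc
Fosb: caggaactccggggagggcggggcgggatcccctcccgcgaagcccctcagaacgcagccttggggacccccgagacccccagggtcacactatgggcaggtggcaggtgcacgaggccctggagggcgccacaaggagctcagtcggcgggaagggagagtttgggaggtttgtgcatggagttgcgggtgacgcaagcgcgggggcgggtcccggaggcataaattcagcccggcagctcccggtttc
In Jun the match TGACATCA begins 45 bases before the start, and in Btg2 the matches TGACGTCA and TGACCTCA begin 166 and 150 bases before it. TGANNTCA was found on either strand in 5 of the 15 promoters found for the 18 immediate-early genes (Btg2, Jun, Jund, Klf6 and Dusp1) and in 12% of all 27025 promoters of that length. The shorter TGANTCA was found in 0 of 15 and in 6.87% of all, and the CArG box of serum response factor in 1 of 15 (Zfp36) and in 1.40% of all. No match overlapped another among the promoters shown. These are matches of letters, and no binding was measured.

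The HSPC-like class held 184 CS and 830 CBM barcodes. Its 10 marker genes summed to 1419 CPM in CS and 2048 in CBM, 1 of 10 being higher in CS, against 333 and 761 CPM over the whole libraries. By marker scores 763 of the 1014 barcodes of the class ranked first as HSPCs. CS was higher in 42 of 6329 genes (0.664%) and lower in 17 (0.269%), with a median log2 ratio of 0.04. Jun was at 731 CPM in CS and 168 in CBM, a log2 ratio of 2.12 (2.04 to 2.20). Egr1 was at 1058 and 290 CPM (1.87), Fosb at 819 and 288 (1.51), the AP-1 subunit Jund at 504 and 251 (1.01), and the antiproliferative gene Btg2 at 405 and 198 (1.03). All 16 measured immediate-early genes were above 0 in log2 ratio, 7 of them at least 2-fold, with a median of 0.94, and the CPM of CS was the higher one for all 18 genes of the list. Egr3, at 121 and 9.42 CPM, passed the minimum only through CS. Btg2 and Jund stayed just short of 2-fold under other scalings, at 0.97 and 0.95 with hemoglobin, mitochondrial and ribosomal protein genes left out of the totals. Fos, itself high in both organs at 1993 and 1446 CPM, had a log2 ratio of only 0.46, and Junb 0.37. More splenic barcodes also held a Jun transcript. After thinning every barcode to 2000 UMIs, 64.7% of CS barcodes (57.3 to 71.6) and 23.6% of CBM barcodes (20.8 to 26.7) had a Jun UMI. In the hemoglobin-rich erythroid-like class the shares were 7.58% (2.51 to 16.8) and 4.72% (1.55 to 10.7), with overlapping intervals. Unthinned, the HSPC-like shares were 97.8% and 63.7%, at median depths of 22183.5 and 13981 UMIs, against 34.8% and 22.6% in the erythroid class at 19293.5 and 12790.

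**Figure D2:**
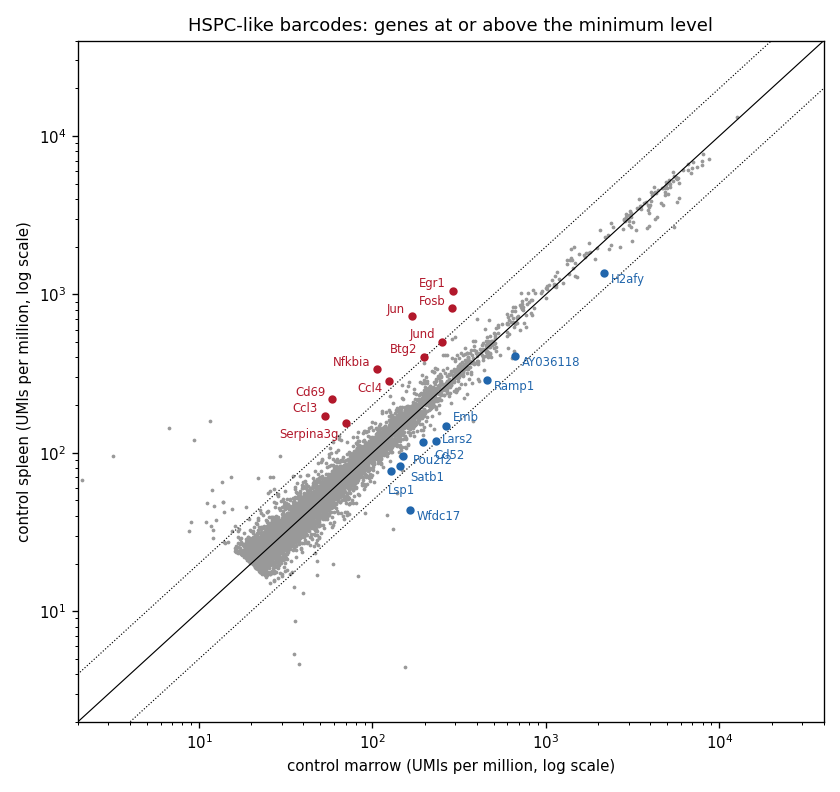
Level of each compared gene (CPM, log axes) in HSPC-like barcodes of CBM (horizontal) and CS (vertical), with the 10 highest named genes in red, the 10 lowest in blue, a solid line of equality and dotted lines at 2-fold. Most genes lie between the dotted lines, while Jun, Egr1 and Fosb stand above the upper one.

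Some genes of inflammatory signaling were also higher in splenic HSPC-like barcodes. Nfkbia, the inhibitor that NF-kB induces to switch itself off, was at 336 CPM in CS and 106 in CBM (log2 1.66), beside 233 and 99.3 CPM in free RNA, and Tnfaip3, a second feedback inhibitor, at 44.5 and 15.5 CPM (1.52). The subunits Nfkb1, Rel and Rela had log2 ratios of -0.04, 0.12 and 0.22. Of 12 measured NF-kB genes 2 were higher, with a median of 0.50, against 0.664% of all genes, but 4 of the 12, Tnfaip3 among them, passed the minimum only through CS. Over the 17 genes of the list CS had the higher CPM for 15 and the lower for 2. Of 18 cytokines and chemokines 7 were measured and 6 were higher, with a median of 1.69, but 4 of the 7 passed the minimum only through CS. Over the whole list CS had the higher CPM for 16 genes and the lower for 1. Cxcl2, a neutrophil attractant, was at 158 and 11.6 CPM, beside 66.3 and 13.3 CPM in free RNA, Ccl3 at 172 and 53.0 (1.69), Ccl4 at 286 and 125 (1.199), Ccl6 at 58.3 and 11.9, and Tnf at 36.6 and 8.96. UMIs of Cxcl2 lay in 70 of 184 CS and 52 of 830 CBM barcodes, of Ccl3 in 64 and 219, and of Ccl4 in 113 and 410. Those of Ccl6 lay in 15 and 41 and of Tnf in 71 and 92. Of the 250 Ccl6 UMIs in CS 60 lay in 1 barcode. Cd69, an early activation antigen that holds cells in tissue, was at 219 and 58.4 CPM (1.91). Mast or basophil markers, among which Cpa3 and Hdc encode a protease and the histamine-forming enzyme, summed to 149 CPM in CS and 47.7 in CBM in this class, 8 of 10 being higher in CS. Macrophage markers summed to 48.9 and 25.3 CPM, 7 of 9 being higher in CS, and early erythroid markers to 694 and 498 CPM, 8 of 9 being higher. Scin was at 32.6 and 1.29 CPM in this class, and the Scin-led clusters held Cxcl2 at 122 CPM in CS. The part of these cell types and of the Scin-led cells in the chemokine values was not tested. The cytokine median was 2.07 with free RNA subtracted, 1.10 without the 5% of barcodes with the highest doublet scores and 0.49 when classes came from marker scores of single barcodes, which brought Ccl3 to 0.10 and Ccl4 to 0.075. The immediate-early median stayed between 0.86 and 1.07 over 12 alternatives.

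Of 10 measured growth factor and cytokine receptors in HSPC-like barcodes 0 were higher and 2 lower, beside 0.664% and 0.269% of all genes. Of the 10, 2 had passed the minimum only through CBM. Over the list of 17, CS had the higher CPM for 6 and the lower for 11. Flt3, the receptor of multipotent progenitors, was at 40.8 CPM in CS and 121 in CBM (log2 -1.57), and Csf3r, the G-CSF receptor, at 20.7 and 47.9 (-1.21). Kit was at 258 and 280 CPM (-0.12). Over 15 stem and progenitor transcription factors the median was 0.00, CS having the higher CPM for 8 and the lower for 7. Mycn was higher (1.04), Hlf lower (-1.25), and Runx1, Fli1 and Tal1 were at 0.29, 0.12 and 0.04. Flt3, Hlf and Mycn, with Mecom and Meis1 of the same list, are among the 10 markers that named the class. Which barcodes the naming placed in the class therefore bears on their values. Wfdc17, a secreted protein of the WAP family, was the lowest named gene at 43.6 and 165 CPM (-1.92), and its free RNA was at 4.34 and 38.3 CPM. The chromatin organizer Satb1 (-0.81) and H2afy, the histone variant macroH2A (-0.66), were below 0 but short of 2-fold in the main comparison. Over 12 alternatives Satb1 lay between -1.12 and -0.13 and H2afy between -0.985 and -0.20.

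Hes1, a repressor downstream of Notch receptors, was chosen after its values were seen. It was at 95.3 CPM in CS and 3.19 in CBM in HSPC-like barcodes (log2 4.90, 4.44 to 5.40), at 65.5 and 2.13 in megakaryocyte-like ones (4.94), and at 85.5 and 33.1 in mast or basophil-like ones (1.37). In the HSPC-like class 102 of 184 CS barcodes and 28 of 830 CBM barcodes had a UMI, 55.4% and 3.37%. After thinning, the shares were 17.9% (12.7 to 24.2) and 0.602% (0.196 to 1.40). Thinned neutrophil precursor-like barcodes had a UMI in 0 of 68 and 0 of 192, with intervals up to 5.28% and 1.90% that hold at that depth only. Unthinned, their shares were 13.2% and 0.521%. Free Hes1 was at 90.6 and 3.87 CPM, and the 3 Scin-led clusters, 33.3% of CS, held it at 208 CPM. The part of free RNA in the Hes1 ratios was not tested.

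Genes of G2 and mitosis lay slightly above 0 in log2 ratio in HSPC-like barcodes, but not in every alternative. All 19, of which 1 passed the minimum only through CS, had log2 ratios above 0 and 0 reached 2-fold, with a median of 0.57, from Ccnb2, a mitotic cyclin, at 0.31 to Mki67, the proliferation antigen, at 0.86 (520 and 287 CPM). S-phase genes were level, with a median of 0.05 over 19. The G2 and mitosis difference moved with the clusters inside the class. Cluster 8 held 54.9% of the CS and 67.1% of the CBM barcodes of the class and cluster 9 the rest, and within cluster 8 alone the median was -0.25. It was -0.10 with classes from marker scores of single barcodes. In GMP-like barcodes the median was 0.54, with 18 of 19 genes above 0, and between 0.34 and 0.60 over 12 alternatives. In mast or basophil-like barcodes it was -0.56, with 0 of 13 measured above 0, 1 of them having passed only through CBM, and with CS at the lower CPM for all 19.

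**Figure D3:**
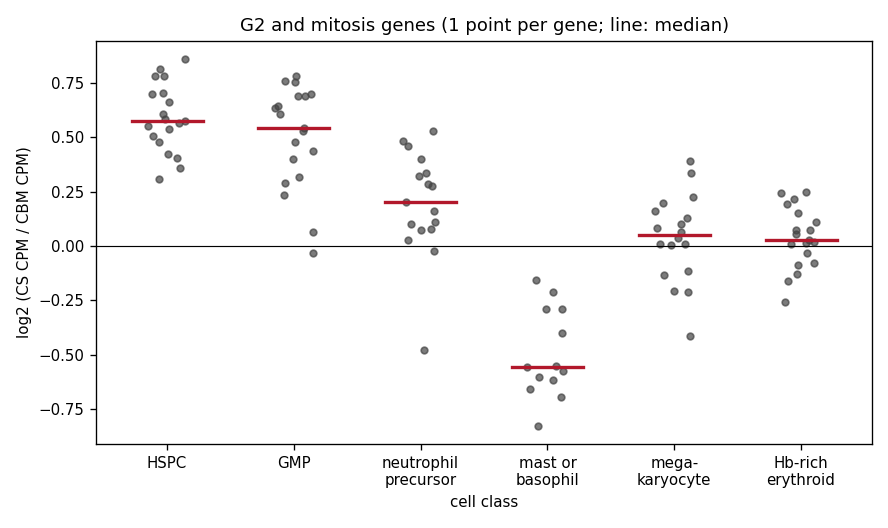
log2 ratio of CS over CBM CPM for each measured G2 and mitosis gene (points) in 6 classes, with the class median as a red line. Medians are 0.57 in HSPC-like, 0.54 in GMP-like and -0.56 in mast or basophil-like barcodes.

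GMP-like barcodes numbered 69 in CS and 528 in CBM. The granule proteases and peroxidase Elane, Prtn3, Ctsg and Mpo had log2 ratios of 0.24, 0.11, 0.06 and 0.07. They are among the markers that named the class, so their likeness follows in part from how barcodes were grouped. By marker scores 362 of these 597 barcodes ranked first as GMPs and 228 as monocytes. CS was higher in 30 of 5639 genes (0.532%) and lower in 9 (0.16%), with a median of 0.05. Immediate-early genes took 10 of the 30, of 14 measured, with a median of 1.34. Of the 14, 3 passed the minimum only through CS, and CS had the higher CPM for all 18 genes of the list. Junb was at 363 CPM in CS and 97.3 in CBM (1.90), Egr1 at 57.1 and 7.65 (2.90), the orphan nuclear receptor Nr4a1 at 97.7 and 17.5 (2.48), Btg2 at 82.9 and 18.7 (2.15), Jun at 173 and 65.1 (1.41), Zfp36, which destabilizes cytokine mRNAs, at 161 and 66.4 (1.28), and Fos at 1418 and 667 (1.09). Every one of 69 CS barcodes and 390 of 528 CBM barcodes had a Junb UMI, at median depths of 43164 and 28152.5. The cytokine oncostatin M, Osm, was at 66.5 and 13.1 CPM (2.35). Among lower genes Crip1, a LIM domain protein, was at 119 and 255 CPM (-1.10), or -0.81 in cluster 6 alone, -0.31 at a cluster resolution of 0.6, -0.27 with marker scores and -2.25 with free RNA subtracted. All 4 measured globin genes were lower in CS, with a median of -2.83, but 3 of them passed the minimum only through CBM, 386 of the 1062 Hba-a1 UMIs of CBM lay in 1 barcode, and in cluster 6, which held 97.1% of the CS and 67.8% of the CBM barcodes of the class, the globin median was -0.19.

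Neutrophil precursor-like barcodes numbered 68 in CS and 192 in CBM. CS was higher in 53 of 5493 genes (0.965%) and lower in 8 (0.146%). Of 13 immediate-early genes 12 were higher, with a median of 1.96 beside a median of 0.08 for all genes. Of the 13, 5 passed the minimum only through CS, Egr1, Nr4a1, Btg2, Klf6 and Dusp1, which include some of the widest ratios, and CS had the higher CPM for all 18 genes of the list. Jun was at 244 CPM in CS and 29.1 in CBM (log2 3.07, 2.82 to 3.32), Egr1 at 101 and 6.50 (3.96), Nr4a1 at 89.4 and 9.58 (3.22), Fosb at 313 and 71.9 (2.12), Junb at 412 and 122 (1.76), and Dusp1, a phosphatase that switches off MAP kinases, at 75.5 and 19.3 (1.97). A Jun UMI was present in 30.9% of thinned CS barcodes (20.2 to 43.3) and 5.21% of CBM barcodes (2.53 to 9.37), or 95.6% and 39.1% unthinned. Ratios within the granule list differed between early and later genes. Mpo, Prtn3 and Elane of primary granules were at -0.18, -0.22 and -0.24. The later genes Camp (1.99 and 94.9 CPM), Ngp (2.33 and 103), Lcn2, S100a8 and S100a9 were all lower in CS, 5 of 10 measured genes of the list. These 5 are among the 10 markers that named the class. Those 10 summed to 920 CPM in CS and 2531 in CBM, 0 of 10 being higher in CS. Which barcodes the naming placed in the class bears on this result. Camp and Ngp passed the minimum only through CBM, and over the 14 genes of the list CS had the lower CPM for each. That difference rested in part on single barcodes, since the granule median of -0.84 became -0.23 without the highest barcode of each gene, over a range of -2.39 to -0.23 in 10 alternatives, and free granule RNA was also lower in CS (median -2.12). Of 6 immunoglobulin genes 3 were measured, all of them only through CS, and 464 of 466 Jchain UMIs lay in 1 barcode. Markers of other cell types were higher in CS in this class, with early erythroid markers at 185 and 36.3 CPM (9 of 9 higher), megakaryocyte markers at 156 and 67.9 (7 of 8) and plasma cell markers at 198.5 and 29.99 (4 of 5), and their part in the results was not tested. By marker scores 254 of these 260 barcodes ranked first as GMPs and only 3 as neutrophil precursors. GMP markers summed to 24190 CPM in CS and 27660 in CBM here, beside 18440 and 16820 in the GMP-like class. The mean log2 level over all other barcodes was 3.15 for neutrophil precursor markers, which gave the name, and 3.01 for GMP markers. The shares and ratios of this class are therefore not those of neutrophil precursors set apart from GMPs.

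Mast or basophil-like barcodes, 350 in CS and 524 in CBM, carried fewer UMIs (medians 5166.5 and 4350), and chemokine genes such as Ccl3, Ccl4 and Ccl6 led 2 of their 4 clusters. Marker scores ranked 570 of these 874 barcodes first as mast or basophil cells and 174 as T, NK or innate lymphoid cells. CS was higher in 66 of 5966 genes (1.11%) and lower in 20 (0.335%), with a median of -0.01. The higher share of the calls, 76.7%, was 63.9% when hemoglobin, mitochondrial and ribosomal protein genes were left out of the totals, and 47.2% (58 higher and 65 lower) in cluster 5 alone. Of 17 measured immediate-early genes 7 were higher with a median of 0.96, 1 of the 17 having passed only through CS, and CS had the higher CPM for all 18 of the list. Klf2, a transcription factor of quiescence, was at 193 CPM in CS and 27.6 in CBM (log2 2.80) with UMIs in 160 of 350 and 52 of 524 barcodes, Egr1 at 3442 and 1263 (1.45), Ier5 at 666 and 237 (1.49), and Fosb at 1192 and 494 (1.27). The feedback gene Socs3 of cytokine signaling was at 174 and 46.9 CPM (1.89) and Gadd45b, a stress-response gene, at 438 and 166 (1.40). Kit, the receptor that mast cells need, was at 230 and 101 CPM (1.18), and Scin at 438 and 118 (1.89). All 11 measured heat shock genes were above 0, with a median of 0.51, CS having the higher CPM for 13 of the list of 15 and the lower for 1, and 2 of them, the chaperone genes Hsph1 and Dnajb1, were higher.

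Effector genes of these cells differed in both directions. Mcpt8, Prss34, Gzmb, Tpsb2, Cpa3, Ms4a2, Fcer1a and Hdc among them are also among the 10 markers that named the class. Which barcodes the naming placed in the class therefore bears on their values. The basophil proteases Mcpt8 and Prss34 were lower in CS, Mcpt8 at 837 against 2759 CPM (log2 -1.72) and Prss34 at 713 against 4007 (-2.49). Prss34 UMIs were found in 25 of 350 CS barcodes and 155 of 524 CBM barcodes, and 664 of its 1752 CS UMIs lay in 1 barcode. Gzmb, granzyme B, was higher in CS, at 1299 against 209 CPM (2.64). Among the other proteases of mast cells, 2 rested on few barcodes. Cma1, a chymase, was at 237 and 12.0 CPM (4.31), with 410 of its 583 CS UMIs in 1 barcode and UMIs in 24 of 350 and 4 of 524, and 5.05 without its highest barcodes. Mcpt4 had 185 of 187 CS UMIs in 1 barcode. After thinning, a Cma1 UMI was present in 4.01% of CS (2.21 to 6.64) and 0.384% of CBM barcodes (0.0465 to 1.38), and in 0 barcodes of the 5 other classes. Unthinned, 1.09% of HSPC-like and 1.47% of neutrophil precursor-like CS barcodes had one. The shared genes Cpa3, Ms4a2, Fcer1a and Hdc were at 0.24, -0.27, -0.48 and -0.57. Over the effector genes 4 of 10 measured were higher and 2 lower, beside 1.11% and 0.335% of all genes, with a median of -0.01. Of the 4, 3 passed the minimum only through CS, Cma1, Mcpt4 and Tpsb2. Over the list of 11, CS had the higher CPM for 6 and the lower for 5. Eosinophil markers summed to 6.92 CPM in CS and 183 in CBM, 4 of 6 being at 0 in CS, and cluster 26, led by Prss34 and Mcpt8, held 1.14% of the CS and 8.97% of the CBM barcodes of the class. Monocyte markers summed to 295 and 549 CPM (0 of 7 higher in CS) and GMP markers to 1639 and 2358 (0 of 7). Early erythroid markers summed to 498 and 279 CPM (7 of 9 higher). The part of these cells in the values above was not tested.

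Megakaryocyte-like barcodes, 180 in CS and 228 in CBM, had the fewest genes past 2-fold for the number compared, although 157 genes were higher when barcodes were weighted equally. Of these 408 barcodes 248 ranked first as megakaryocytes by marker scores, 55 as HSPCs and 50 as stromal cells. CS was higher in 26 of 6112 genes (0.425%) and lower in 8 (0.131%). Jun was at 751 CPM in CS and 266 in CBM (log2 1.495), Egr1 at 846 and 408 (1.05, or 0.97 with barcodes weighted equally), and Nfkbia at 178 and 69.0 (1.37). All 16 immediate-early genes were above 0, 3 of them higher, with a median of 0.80. Platelet genes had a median of -0.15 over 14, and 1 was higher, Ppbp, a chemokine of platelet granules, at 257 and 95.3 CPM. Pf4, its partner in the granules, was at 3150 and 5720 CPM (-0.86), and Vwf at 173 and 246 (-0.50). These 3 are among the 8 markers that named the class, all of which are in the platelet list. The values of the list thus follow in part from how barcodes were grouped. The 8 markers summed to 4307 CPM in CS and 6872 in CBM, 3 of 8 being higher in CS. Cluster 23, led by Ppbp and with a median of only 3877.5 UMIs, made up 15% of the CS and 4.82% of the CBM barcodes of the class. Slc14a1, a urea transporter, was at 230 and 388 CPM (-0.76), and Rgs18, a regulator of G protein signaling in platelets, at 360 and 531 (-0.56). Granule genes of neutrophils, which these cells lack, had a median of -2.12, beside -2.05 in free RNA, and of 0.83 with free RNA subtracted. Of the 5 genes measured 3 passed the minimum only through CBM.

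**Figure D4:**
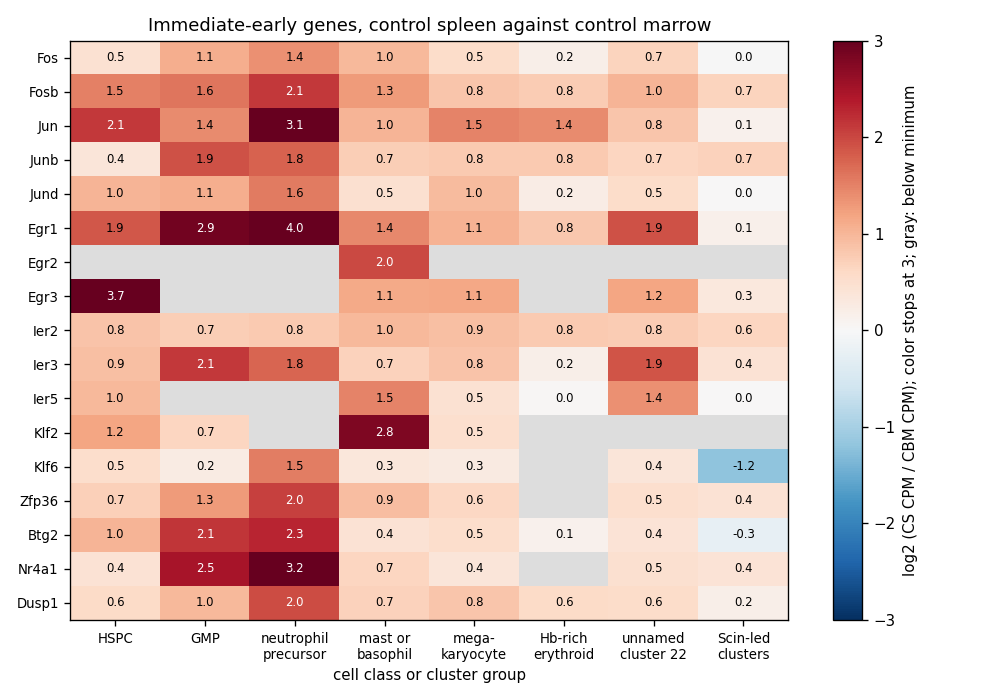
log2 ratio of CS over CBM CPM for each immediate-early gene (rows) in 6 classes and 2 groups of unnamed clusters (columns), with gray where the gene was below the minimum level. Jun is past 2-fold in all 6 classes, and in the Scin-led clusters Klf6 is the one gene past 2-fold, at -1.21.

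Hemoglobin-rich erythroid-like barcodes, 66 in CS and 106 in CBM, had Jun alone of 11 measured immediate-early genes past 2-fold (70.8 and 26.3 CPM, log2 1.43), with a median of 0.57. That median was 0.14 with hemoglobin, mitochondrial and ribosomal protein genes left out of the totals and 1.31 without the 5% highest doublet scores, and over the list CS had the higher CPM for 14 genes and the lower for 3. Markers of other cell types differed in this class, with plasma cell markers at 327 CPM in CS and 8.37 in CBM (5 of 5 higher), dendritic cell markers at 526 and 72.3 (6 of 9), megakaryocyte markers at 99.1 and 53.8 (7 of 8) and HSPC markers at 17.4 and 102 (1 of 10), and their part in the results was not tested. CS was higher in 39 of 4269 genes (0.914%) and lower in 20 (0.468%), a higher share of 66.1% that became 45.3% after centering on the median gene and 45.5% with the reduced totals. Marker scores ranked 100 of these 172 barcodes first as hemoglobin-rich erythroid cells and 71 as early erythroid cells. The globin genes themselves were at -0.12 to -0.25 and 10 heme synthesis genes had a median of -0.06. Among interferon-stimulated genes Isg15, a ubiquitin-like protein, was at 216 and 62.2 CPM (1.80), and Irf7, a transcription factor of the interferon response, at 32.8 and 11.4 (1.53). Irf7 passed the minimum only through CS. Isg15 was not higher in this class alone. Its log2 ratio was 1.28 in HSPC-like and 1.74 in mast or basophil-like barcodes, and it was below the minimum level in the other classes compared. It was 1.66 in the Scin-led clusters, 2.15 in cluster 22 and 1.89 over whole libraries. In the hemoglobin-rich class 92 of the 336 Isg15 UMIs in CS lay in 1 barcode, and free Isg15 was at 44.6 and 15.0 CPM. Thinned shares of barcodes with an Isg15 UMI, 21.2% (12.1 to 33.0) and 14.2% (8.14 to 22.3), overlapped in their intervals and were 47.0% and 40.6% unthinned. H2afy was at 51.5 and 191 CPM (-1.89), with free H2afy at 404 and 1271, and at -0.51 without the 5% highest doublet scores. The histone genes Hist1h3i and Hist1h2bb, which have near-identical copies, were at -0.99 and -0.73. Single barcodes set other calls. Of 3693 Igkc UMIs in CS 3663 lay in 1 barcode, as did 286 of 341 Cd74 UMIs, and without the highest barcode of each gene the log2 ratio of the chaperone gene Hsp90b1 was 0.45 in place of 1.08, that of the actin-binding Tmsb4x 0.09 in place of 1.32, and 23 genes were higher in place of 39.

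Outside the named classes, the 3 Scin-led clusters held 1076 CS and 60 CBM barcodes, of which the CBM side is small. CS was higher there in 45 of 5902 genes (0.762%) and lower in 85 (1.44%). Of 15 measured immediate-early genes 0 were higher and 1 was lower (Klf6, log2 -1.21), 12 were above 0, 1 had passed the minimum only through CS and the median was 0.18, beside -0.02 for all genes. Over the list CS had the higher CPM for 12 and the lower for 5, and no difference from the classes was tested. Mt2 was at 194 and 30.8 CPM (2.66), and Gata2, a transcription factor of stem cells and mast cells, at 156 and 383 (-1.30). G2 and mitosis genes had a median of -0.65 over 19, 2 of them lower. The clusters were mixed unevenly, with 437, 260 and 379 CS and 31, 22 and 7 CBM barcodes in clusters 1, 3 and 4. Mki67 and Kif11 were among the leading genes of cluster 3, and the part of this mix in the median was not tested. Unnamed cluster 22, led by Csrp3, Ifitm1, Trib2 and Gata2, held 62 CS and 256 CBM barcodes, with CS higher in 85 of 6027 genes (1.41%) and lower in 29 (0.481%). In it 5 of 15 measured immediate-early genes were higher, 1 of the 15 having passed only through CS, and CS had the higher CPM for 16 of the list and the lower for 2. Egr1 was at 1040 and 277 CPM (1.91), the interferon-induced membrane gene Ifitm1 was at 4745 and 1451 (1.71), and 5 of 19 G2 and mitosis genes were measured, 3 of them only through CS, all 5 being higher. Over the 19, CS had the higher CPM for 17 and the lower for 2.

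**Figure D5:**
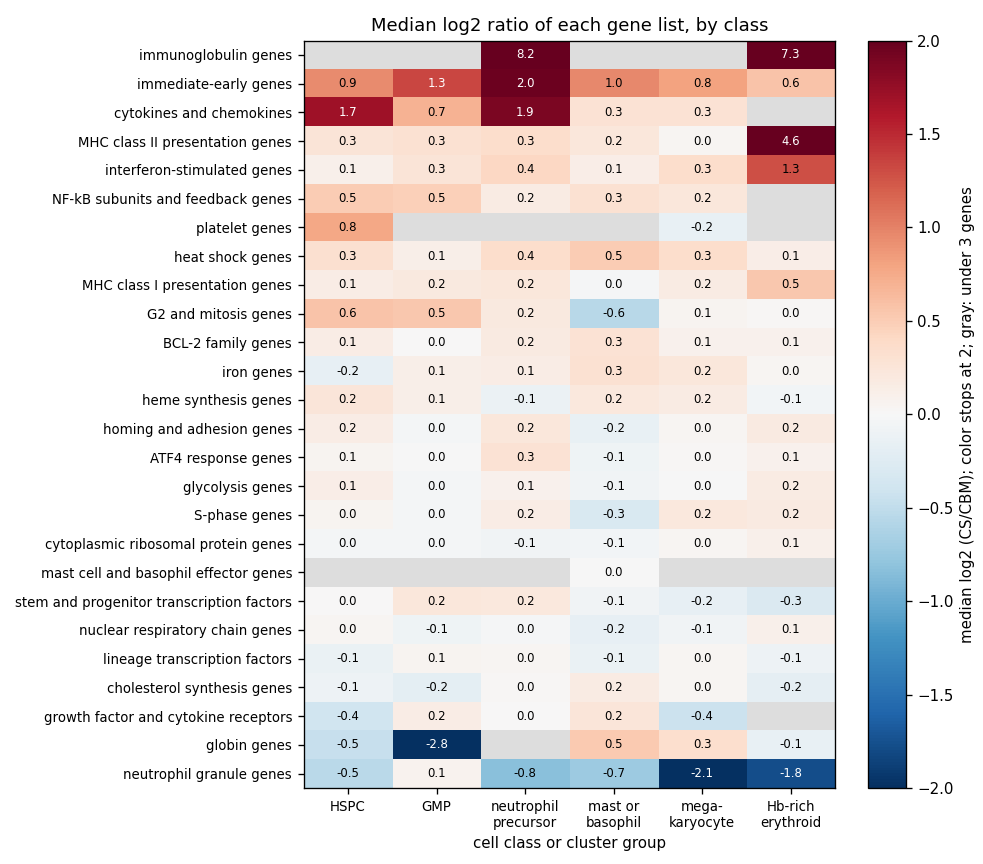
Median log2 ratio of CS over CBM CPM for each gene list (rows) in 6 classes (columns), with gray where fewer than 3 genes were measured. The immediate-early row runs from 0.57 to 1.96, while ribosomal protein, respiratory chain and glycolysis rows stay near 0. Immediate-early and ribosomal protein genes were left out of the clustering, whereas respiratory chain and glycolysis genes took part in it.

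Lists of general metabolism were level in the 6 classes. Cytoplasmic ribosomal protein genes, 54 measured, had medians between -0.08 and 0.10 over the 6 classes. The 35 nuclear genes of the respiratory chain had medians between -0.17 and 0.11. The latter took part in the clustering, so their likeness is in part built in, whereas ribosomal protein genes were left out of it. Homing and adhesion genes, several of which differed over whole libraries, had a median of 0.15 in HSPC-like barcodes. Of 13 measured, 0 were past 2-fold, where 0.664% of all genes were higher and 0.269% lower. Cxcr4, the receptor that holds stem cells in marrow, was at 40.1 CPM in CS and 53.2 in CBM.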

How the data were processed

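Droplet libraries of control spleen and control marrow were analysed from unfiltered matrices of UMI counts per gene and barcode, which the authors deposited after alignment with Cell Ranger 4.0 to mm10 per the submitters' processing notes. The correction for free RNA and the 350-gene filter of the study are not in these matrices. The study ran Cell Ranger at default settings, and how these treat strand is not described in the sources used here. Members, classes and lists were chosen with earlier results of these data known. Barcodes with at least 1000 genes and at most 10% mitochondrial UMIs were kept.

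Barcodes of both libraries were clustered on 16128 genes (scanpy 1.11.5, Pearson residuals with theta 100, 50 components, 20 neighbors, resolution 1.2, Python 3.11.15, numpy 2.4.6, scikit-learn 1.9.0, igraph 0.11.9), leaving out immediate-early, NF-kB, cytokine, interferon, heat shock, cell-cycle, ribosomal, metallothionein, immunoglobulin and mitochondrial genes. Clusters were named from fixed markers, and with marker scores of single barcodes 1177 of 6733 lay near the border of their class. Doublets were scored and none removed, and leaving out the highest 5% was an alternative. UMIs were summed per class, and exact 95% Poisson and binomial intervals (scipy 1.17.1) cover counting error only, at median depths of 26322.5 and 13738 UMIs per barcode. A library with 0 UMIs of a gene was set to 3 counts. The steps were tested on simulated data.

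Named genes were the 10 highest and 10 lowest log2 ratios per population at a mean of at least 100 CPM and 50 UMIs, leaving out cell type markers, mitochondrial, ribosomal protein, hemoglobin and immunoglobulin genes and unnamed gene models, together with genes past 2-fold in every class and the list members. Of 432 list genes 1 was missing. Of 127 named genes 31 overlap another gene in the annotation, and histone genes have near-identical copies. Alternatives changed 1 choice at a time. Those that used only the cluster with most CS barcodes, or left out the highest barcode of each gene, were chosen after seeing the data. A result that rests on a withheld gene is not reported here.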

Additional observations from a re-analysis of the deposited data

How the results depend on the processing

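With no minimum level the genes higher and lower in CS numbered 1495 and 4229 over whole libraries, 3188 and 634 in HSPC-like, 3284 and 387 in GMP-like, 2067 and 391 in neutrophil precursor-like, 1646 and 1458 in mast or basophil-like, 1516 and 1411 in megakaryocyte-like and 1829 and 1464 in hemoglobin-rich erythroid-like barcodes, and 48 list medians of the 6 classes in place of 27 were at least 0.5 from 0, since genes with few UMIs then entered. With classes from marker scores of single barcodes the counts were 86 and 82 in HSPC-like and 108 and 47 in mast or basophil-like barcodes, with 5 lower in GMP-like and 5 lower in megakaryocyte-like barcodes. At resolution 0.6, 0 genes were lower in GMP-like, 26 in neutrophil precursor-like and 31 in megakaryocyte-like barcodes, and 128 were higher in hemoglobin-rich ones. In the cluster with most CS barcodes alone, 5 were lower in GMP-like and 65 in mast or basophil-like barcodes, and 46 higher and 24 lower in megakaryocyte-like ones. Weighting barcodes equally gave 176 lower over whole libraries, 19 in GMP-like, 33 in mast or basophil-like, and 157 higher and 17 lower in megakaryocyte-like barcodes, and thinning to 2000 UMIs gave 177 lower over whole libraries. Reduced totals gave 30 lower in HSPC-like, 43 in mast or basophil-like, 13 in megakaryocyte-like and 48 in hemoglobin-rich barcodes. With at least 2000 genes, 121 were higher and 60 lower in mast or basophil-like barcodes. Subtracting free RNA gave 4 lower in megakaryocyte-like and 64 higher in hemoglobin-rich barcodes, median-ratio scaling gave 24 higher in the latter, and leaving out the highest barcode gave 23 higher there and 5 lower in neutrophil precursor-like ones.

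The log2 share of CS over CBM with marker scores was -0.952 for HSPC, -1.978 for GMP, 0.112 for neutrophil precursors with 3 barcodes on each side, which reversed it, -0.545 for megakaryocytes, 3.032 for early erythroid and 0.783 for T, NK or innate lymphoid barcodes. At resolution 0.6 it was -2.463 for HSPC, -1.985 for GMP, -2.257 for neutrophil precursors, 1.650 for dendritic, 3.970 for early erythroid and -5.058 for monocyte barcodes, and with at least 2000 genes -0.175 for mast or basophil barcodes. Immunoglobulin medians turned to -0.890 over whole libraries without high doublet scores and to -2.246 in neutrophil precursor-like barcodes at resolution 0.6, and the granule median in megakaryocyte-like barcodes to 0.830 with free RNA subtracted. The cause was not tested. No paired analysis was possible because each organ had 1 library.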
